A study of Mus musculus with 14 samples.

Results

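In germ cell preparations from the testes of newborn mice, the second library of each single Jmjd1 knockout carried many transcripts of neighbouring somatic cells that the first library of the same genotype held at a low level. These 4 libraries, of 14 in the series, are the subject here: replicates 1 and 2 of P3 Jmjd1aKO and replicates 1 and 2 of P3 Jmjd1bKO. They were chosen by the measured difference in RPKM between replicates 2 and 1 of each genotype, with the Sertoli cell genes Amh, Inha, Clu and Sox9 as markers. That difference is therefore given as a description, without a test.

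Postnatal male germ cells of C57BL/6 testes were profiled by RNA sequencing at postnatal days 3 (P3) and 7 (P7), with 2 libraries in each of 7 groups. P3 Jmjd1aKO carried Vasa-Cre with Jmjd1a deleted and 1 copy of Jmjd1b left (Jmjd1a-/-; Jmjd1b-/+), and P3 Jmjd1bKO carried Vasa-Cre with Jmjd1b deleted and 1 copy of Jmjd1a left (Jmjd1a-/+; Jmjd1b-/-). P3 Ctrl and P7 Ctrl carried the same driver and were heterozygous for both genes (Jmjd1a-/+; Jmjd1b-/+), so all groups other than P3 WT carry Vasa-Cre and at least 1 deleted allele of both genes. P3 DKO and P7 DKO carried the driver with both genes deleted (Jmjd1a-/-; Jmjd1b-/-). P3 WT was wild type. Vasa-Cre is active in germ cells. How the germ cells were separated, and whether a pair of replicates came from separate animals, is not given in the labels, so each p-value covers the spread among these libraries alone, which may be technical.

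As background, the neonatal testis cord holds germ cells, called gonocytes or prospermatogonia, embedded among Sertoli cells, which still divide at this age and secrete anti-Mullerian hormone and inhibin. Around the cords lie peritubular myoid cells, fibroblast-like stroma, steroid-making Leydig cells, vessels and macrophages. In the days after birth the gonocytes leave mitotic arrest, move to the wall of the cord and become spermatogonia, and transcripts of the arrested state such as Dnmt3l, a cofactor of de novo DNA methylation, are turned down.

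The targeted genes matched the labels in all 4 libraries. Kdm3a, the current symbol of Jmjd1a, stood at 9.83 RPKM (read counts scaled by transcript length and by library total) in replicate 1 and 9.84 RPKM in replicate 2 of P3 Jmjd1aKO, against 26.1 and 25.4 RPKM in P3 Jmjd1bKO and 28.4 and 26.3 RPKM in P3 Ctrl. Kdm3b, the current symbol of Jmjd1b, stood at 4.72 and 7.51 RPKM in P3 Jmjd1bKO, against 9.81 and 13.9 RPKM in P3 Jmjd1aKO and 10.2 and 13.5 RPKM in P3 Ctrl. Kdm3a was at the same level in replicates 1 and 2 of P3 Jmjd1aKO, while Kdm3b was 1.42 and 1.59 times higher in replicate 2 of both genotypes. Germ cell transcripts were abundant in both kinds of library. Ddx4, the germ cell RNA helicase after which the driver Vasa-Cre is named, stood at 208 and 224 RPKM in replicates 1 and 2 of P3 Jmjd1aKO and at 252 and 226 RPKM in P3 Jmjd1bKO. Depth in megareads (M), estimated from the steps between low RPKM values, was lower in the second libraries, at 26.5 M and 26.2 M reads, against 40.8 M and 43.1 M reads in the first, and ran from 13.5 M to 50.2 M reads over the series. Its part in the differences was not tested.

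Of the 14772 genes tested, those that reached 1 RPKM in 2 or more libraries, 388 were at least 2-fold higher in replicate 2 of both genotypes (2.63% of the genes tested) and 105 at least 2-fold lower (0.711%), on log2(RPKM + 1). Small RNA loci made up 12 of the higher and 21 of the lower genes, which leaves 376 and 84. A 4-fold difference was reached by 97 higher and 13 lower genes, or 90 and 2 without small RNA loci. The 24 genes past 2-fold in opposite directions were all small RNA loci, whose short products an mRNA library is not made to measure. At the edge of the 2-fold limit, Anxa6, an annexin gene, was just inside with differences of 1.03 and 1.0 in P3 Jmjd1aKO and P3 Jmjd1bKO, and Sfrp2, a secreted Wnt inhibitor, was just outside with 0.9992 and 1.38. On the lower side, Vdr, the vitamin D receptor, was just inside, at 7.55 and 3.27 RPKM and at 5.67 and 1.78 RPKM, and Prss50, a testis protease gene, just outside, at 14.2 and 6.60 RPKM and at 9.64 and 3.03 RPKM. Of the 376 higher genes, 41 reached 1 RPKM in the second libraries alone. The 313 that reached it in at least 2 of the other 12 libraries are the only ones that would pass the filter without the second libraries. Counts within a list are of the genes tested, and a gene that passed the filter only with the second libraries had to be higher there. The 376 genes took 1.91% and 2.1% of all summed RPKM in the second libraries of P3 Jmjd1aKO and P3 Jmjd1bKO, and 0.552% and 0.463% in the first.

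The differences of both genotypes followed each other closely. Across genes, replicate 2 minus replicate 1 of P3 Jmjd1aKO and of P3 Jmjd1bKO correlated at r = 0.58 over 14772 genes and r = 0.89 without small RNA loci, as a description, since genes are not independent replicates and both second libraries were shallower than the first. Between the other 20 pairs of groups the same r without small RNA loci ran from -0.05 to 0.45, and the highest values were those of P3 Ctrl with P3 Jmjd1bKO (0.45), P3 DKO, the double knockout (0.43), and P3 Jmjd1aKO (0.43). Within single groups, 663 genes (4.49%) differed by 2-fold between the replicates of P3 Jmjd1aKO and 1023 (6.93%) between those of P3 Jmjd1bKO, against 115 to 327 genes in the other 5 groups. The scatter of both differences (Sertoli genes to the upper right, germ cell genes just below 0) shows the shared direction.

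**Figure D1:**
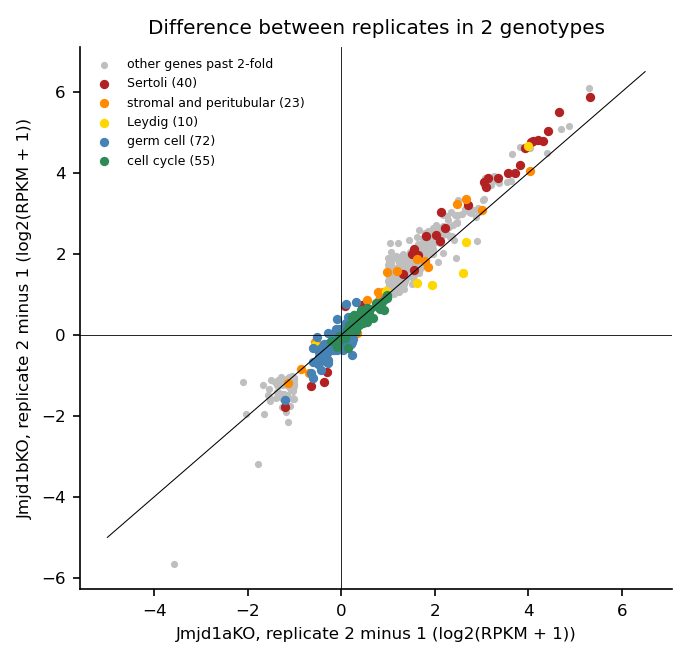
Difference between replicates 2 and 1 on log2(RPKM + 1), in P3 Jmjd1aKO on the horizontal and P3 Jmjd1bKO on the vertical axis, for members of the gene lists (coloured, number of genes tested in brackets) and the other genes past 2-fold in both genotypes (grey, small RNA loci left out). The diagonal marks equal differences; most Sertoli genes lie above 1 on both axes, and Cst9 reaches 5.31 and 5.88.

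The hormones and secreted proteins of Sertoli cells were far higher in replicate 2. Amh, the hormone that makes the Mullerian duct regress, was at 3.33 RPKM in replicate 1 and 108 RPKM in replicate 2 of P3 Jmjd1aKO, and at 2.301 and 150 RPKM in P3 Jmjd1bKO, which is 32.4 and 65.0 times higher. Amh read 3.09 and 3.84 RPKM in P3 Ctrl and 16.6 and 22.6 RPKM in P3 WT, and 3.24 to 9.77 RPKM in the P3 DKO and P7 libraries, so the second libraries stood above all 12 others. In GRCm38 the protein-coding genes Amh, Inha, Clu and Sox9 lie at chr10:80805243-80807648, chr1:75507077-75510366, chr14:65968483-65981547 and chr11:112782224-112787760. Inha, the alpha subunit of inhibin, a hormone that restrains pituitary FSH, went from 6.72 to 165 RPKM and from 5.36 to 206 RPKM. Its beta subunit gene Inhbb followed, from 1.42 to 19.6 RPKM and from 0.967 to 23.7 RPKM. Clu, which encodes the secreted chaperone clusterin, went from 28.0 to 255 RPKM and from 20.4 to 312 RPKM, ratios of 9.13 and 15.3 from a higher starting level.

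Signals that Sertoli cells send to their neighbours were also higher in replicate 2. Dhh, the hedgehog ligand that instructs Leydig and peritubular cells, read 2.73 and 23.4 RPKM in P3 Jmjd1aKO and 2.01 and 27.0 RPKM in P3 Jmjd1bKO. Kitl, the ligand of the KIT receptor on germ cells, read 0.729 and 7.07 RPKM in the first genotype and 0.452 and 8.06 RPKM in the second. Gdnf, the growth factor that maintains spermatogonial stem cells, stayed low in all 4 libraries but still differed, at 0.528 and 3.49 RPKM and at 0.268 and 4.47 RPKM.

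Among the largest differences were those of small secreted proteins. Defb19, a beta-defensin gene of fetal and neonatal Sertoli cells, was at 2.75 and 146 RPKM in P3 Jmjd1aKO and at 1.63 and 180 RPKM in P3 Jmjd1bKO. Cst9, a cystatin gene also called testatin, went from 1.49 to 98.0 RPKM and from 0.942 to 113 RPKM. Its relative Cst12 went from 6.10 to 130 RPKM and from 4.52 to 155 RPKM. All 3 were above every other library in both second libraries. Enzymes were as far apart. Gstm2, a glutathione transferase, was at 9.08 and 294 RPKM in P3 Jmjd1aKO and at 9.25 and 368 RPKM in P3 Jmjd1bKO. Aldh1a1, which makes retinoic acid, was at 2.69 and 95.1 RPKM and at 2.43 and 116 RPKM, and Akr1cl, an aldo-keto reductase, at 1.19 and 45.3 RPKM and at 1.44 and 53.6 RPKM. In P3 WT these 3 genes stood in between, with Gstm2 at 46.1 and 56.1 RPKM. Of the 15 tested genes in the list of Sertoli hormones and secreted factors, 11 were 2-fold higher in both genotypes and none 2-fold lower, with medians of 3.09 and 3.65 on the log2 scale, beside medians of -0.04 and -0.04 over all genes. Trf, which encodes transferrin, was the member that pointed down, at 27.9 and 17.4 RPKM and at 66.2 and 27.1 RPKM.

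The transcription factors that give Sertoli cells their identity were present at lower levels and differed in the same direction. Sox9, the factor that starts Sertoli differentiation, read 1.09 and 5.58 RPKM in P3 Jmjd1aKO and 0.879 and 6.33 RPKM in P3 Jmjd1bKO, and no other library exceeded 2.32 RPKM. Gata4, a zinc finger factor of Sertoli and other gonadal somatic cells, read 2.76 and 37.6 RPKM and 2.15 and 44.9 RPKM. Nr5a1, the nuclear receptor also known as steroidogenic factor 1, read 1.37 and 18.8 RPKM and 0.835 and 24.2 RPKM. Rhox8, an X-linked homeobox gene of Sertoli cells, read 1.45 and 36.7 RPKM and 0.947 and 46.9 RPKM. Wt1, needed to keep Sertoli identity, read 4.25 and 17.4 RPKM and 2.33 and 17.0 RPKM. Of the 10 tested factors 6 were 2-fold higher in both genotypes. Dmrt1 and Etv5 were not, at 182 and 167 RPKM and at 89.3 and 79.1 RPKM in replicates 1 and 2 of P3 Jmjd1aKO. Both genes are also expressed by germ cells.

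Receptors, enzymes and junction genes of the Sertoli cell formed the third group, with 9 of 15 genes 2-fold higher and 1, Krt18, 2-fold lower. Gja1, the gap junction protein connexin 43, went from 1.42 to 39.4 RPKM and from 0.725 to 45.8 RPKM. Hsd17b1 and Aard, an enzyme of estrogen metabolism and a gene named for its alanine- and arginine-rich domain, reached 33.0 and 93.6 RPKM in replicate 2 of P3 Jmjd1aKO from 0.977 and 3.73 RPKM. Fshr, the receptor for FSH, was at 0.101 and 0.0287 RPKM in the first libraries and at 3.77 and 4.16 RPKM in the second. Vim, an intermediate filament gene of mesenchymal and Sertoli cells, went from 16.3 to 75.7 RPKM and from 9.67 to 86.6 RPKM. Over all 3 groups, 26 of 40 tested Sertoli genes were 2-fold higher in both genotypes and 1 was lower, and 3 of the 40, Gdnf, Fshr and Erbb4, were tested only because of the second libraries.

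**Figure D2:**
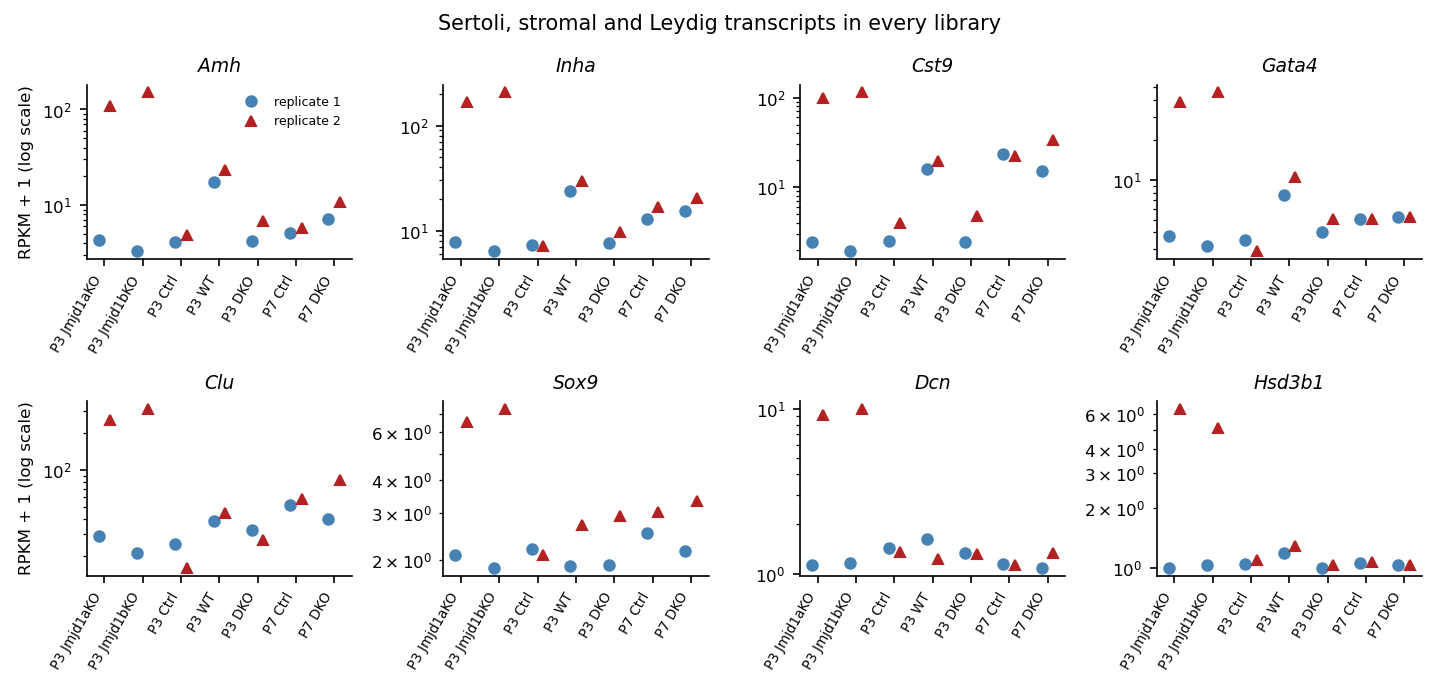
RPKM + 1 on a log scale for 8 somatic genes in every library, with blue circles for replicate 1 and red triangles for replicate 2 of each group. For Amh the second libraries of P3 Jmjd1aKO and P3 Jmjd1bKO stand at 108 and 150 RPKM and all other libraries at 22.6 RPKM or below; Hsd3b1 reaches 5.36 and 4.07 RPKM in that pair alone.

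Promoters of genes that moved together were read for 3 short motifs, and those of Cst9 and Gja1, which were higher, and of Krt18, which was lower, are shown so that the regions can be inspected. Of 7 promoters read one by one, 4 held a match (these 3 and C3) and 3 held none (Inha, Krt7 and Dnmt3l). They span 250 bases before to 50 after the annotated start, on the plus strand in GRCm38.p6 per RefSeq: Cst9 at chr2:148834897-148835196, Gja1 at chr10:56377050-56377349 and Krt18 at chr15:102027966-102028265. Capitals mark a match, on either strand, to ACAAAG, a core of SOX sites, in Cst9 and Krt18, and to the GATA-binding site (AGATAA) in Gja1.
Cst9: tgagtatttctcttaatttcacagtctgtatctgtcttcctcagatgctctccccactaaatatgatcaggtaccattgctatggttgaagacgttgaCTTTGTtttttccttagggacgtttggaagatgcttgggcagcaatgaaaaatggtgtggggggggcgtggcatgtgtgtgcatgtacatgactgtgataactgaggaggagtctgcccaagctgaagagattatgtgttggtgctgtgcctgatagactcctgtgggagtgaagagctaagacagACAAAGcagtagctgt
Gja1: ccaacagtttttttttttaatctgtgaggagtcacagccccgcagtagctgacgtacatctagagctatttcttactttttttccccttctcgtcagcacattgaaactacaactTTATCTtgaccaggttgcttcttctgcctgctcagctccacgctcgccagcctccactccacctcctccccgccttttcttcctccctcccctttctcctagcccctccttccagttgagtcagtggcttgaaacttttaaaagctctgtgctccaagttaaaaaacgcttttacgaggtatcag
Krt18: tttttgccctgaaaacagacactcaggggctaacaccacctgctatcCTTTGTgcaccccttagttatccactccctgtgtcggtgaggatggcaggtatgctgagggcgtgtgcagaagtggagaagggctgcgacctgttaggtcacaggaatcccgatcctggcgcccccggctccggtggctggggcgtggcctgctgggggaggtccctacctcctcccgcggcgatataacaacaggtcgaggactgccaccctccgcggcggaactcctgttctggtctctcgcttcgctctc
Of the 363 higher genes that are neither small RNA loci nor predicted genes, 260 had a promoter in the RefSeq table, and 53 of the 76 lower genes. ACAAAG was present in 16.2% of the promoters of higher genes, in 17.0% of those of lower genes and in 13.8% of those of all tested genes. AGATAA was present in 9.23%, 7.55% and 6.39% in the same order. AAGGNCA, the site of steroidogenic factor 1, was present in 20%, 15.1% and 16%. Over all 27025 promoters of that length the shares were 18.7% for ACAAAG, 11.4% for AGATAA and 20.2% for AAGGNCA, and the higher genes did not exceed them. None of the 3 motifs contains another, and a match describes letters only.

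Interstitial and peritubular transcripts came with the Sertoli genes, at lower levels. Sparc, a matricellular protein gene of many mesenchymal cells that Sertoli cells also express, was at 7.87 and 145 RPKM in P3 Jmjd1aKO and at 9.68 and 177 RPKM in P3 Jmjd1bKO. The collagen genes Col1a2 and Col3a1 reached 15.8 and 11.97 RPKM in replicate 2 of P3 Jmjd1aKO from 2.003 and 1.04 RPKM, and 16.6 and 13.8 RPKM in P3 Jmjd1bKO from 0.877 and 0.458 RPKM. Dcn, the proteoglycan decorin of stromal fibroblasts, read 0.137 and 8.18 RPKM and 0.172 and 8.94 RPKM. Tcf21, a transcription factor of interstitial progenitors, read 0.0850 and 2.75 RPKM and 0.202 and 3.24 RPKM. Acta2, the smooth muscle actin of peritubular cells, read 2.02 and 8.23 RPKM and 1.28 and 7.41 RPKM. Its relative Actg2 (5.19 and 1.81 RPKM, then 3.23 and 0.861 RPKM) was lower in replicate 2. So was the desmin gene Des (8.31 and 4.76 RPKM, then 4.71 and 1.96 RPKM). Of 23 tested stromal and peritubular genes 8 were 2-fold higher in both genotypes and 1 was 2-fold lower, with medians of 0.81 and 0.96. Without the second libraries 6 of the 23 would not have been tested.

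Leydig transcripts were few. Hsd3b1, a steroid dehydrogenase gene, was listed at 0 and 0.0375 RPKM in the first libraries and read 5.36 and 4.07 RPKM in the second. Insl3, the hormone of testis descent, was listed at 0 and at 0.262 RPKM and read 5.05 and 2.63 RPKM. Cyp17a1, an enzyme of androgen synthesis, read 2.96 and 1.44 RPKM in the second libraries and under 0.04 RPKM in the first, and Cyp11a1, which cleaves the side chain of cholesterol, went from 0.526 to 3.67 RPKM and from 0.657 to 3.03 RPKM. Star, the cholesterol carrier of Leydig cells, differed little, at 1.13 and 1.85 RPKM and at 1.36 and 1.89 RPKM. Hsd17b3, which completes testosterone and in the fetal mouse testis is made by Sertoli cells, was the exception, with 1.27 and 35.4 RPKM and 0.782 and 44.2 RPKM. Of 10 tested Leydig genes 5 were 2-fold higher in both genotypes, and 5 of the 10 were tested only because of the second libraries. The median over both genotypes was 1.23, but 0.36 when no gene was filtered out and 0.0018 when only genes at 5 RPKM were kept.

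Other cell types of the testis did not move as 1 group. Endothelial genes pointed down in 8 of 9 cases (88.9%, beside 46.6% of all genes), and 1 of the 9 was 2-fold lower in both genotypes. In replicate 2 of P3 Ctrl 7 of the 9 were also lower than in replicate 1. Pecam1, an adhesion molecule of endothelium that early germ cells also express, went from 12.9 to 5.71 RPKM and from 17.4 to 5.32 RPKM. The macrophage genes C1qa, C1qb, C1qc, Tyrobp and Lyz2 read 1.79 to 3.50 RPKM in the second libraries and at most 0.171 RPKM in the first. The defining leukocyte markers Ptprc and Adgre1 stayed at or under 0.242 RPKM, and Fcer1g, the most abundant gene of the leukocyte list, was lower in replicate 2, at 67.5 and 34.2 RPKM and at 57.1 and 25.2 RPKM, so the summed list was also lower (56.9 and 43.8 RPKM against 77.8 and 67.8 RPKM) although 5 of its 8 tested genes were 2-fold higher. Those 5 were tested only because of the second libraries, and the list's median of 1.54 was 0.51 without a filter and -0.77 with a filter of 5 RPKM. Hbb-b1, a beta globin gene, was at 43.7 RPKM in replicate 2 of P3 Jmjd1aKO but at 2.92 RPKM in replicate 2 of P3 Jmjd1bKO, from 0.201 and 0.867 RPKM. Reads of globin genes can be shared among near-identical copies, so these values are uncertain. Hbb-b1 thus marked replicate 2 of P3 Jmjd1aKO far more than that of P3 Jmjd1bKO. Hbb-bs, another beta globin gene, did not. Its difference on the log2 scale was -9.3e-05 in P3 Jmjd1aKO and 1.18 as a mean over both genotypes. The erythroid marker Alas2 had a mean of -0.27. In the surface epithelium list all 3 tested genes were lower, beside 46.6% of all genes, and 2 of them were also lower in replicate 2 of P3 Ctrl. Another 5 of its genes were not tested, and the list's median of -0.69 was -0.15 without a filter. Gata2, a zinc finger factor, differed most, at 8.34 and 3.85 RPKM and at 16.4 and 3.30 RPKM.

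The second libraries were compared with each other over genes chosen for being higher in both. The level in replicate 2 of P3 Jmjd1bKO minus that in replicate 2 of P3 Jmjd1aKO had a median of 0.21 on the log2 scale over the 376 higher genes, with an interquartile range of 0.10 to 0.31. Over the 26 Sertoli genes the median was 0.25 (range -0.03 to 0.47). Some other somatic genes went the opposite way, with Insl3 at 5.05 and 2.63 RPKM, Cyp17a1 at 2.96 and 1.44 RPKM and Hbb-b1 at 43.7 and 2.92 RPKM in P3 Jmjd1aKO and P3 Jmjd1bKO. The other somatic lists, summed in the same order, were split. Higher in P3 Jmjd1bKO were the Leydig (148.2 and 155.0 RPKM), stromal and peritubular (273.1 and 303.9 RPKM) and surface epithelium sums (12.59 and 13.32 RPKM). Lower were the erythroid (78.55 and 12.17 RPKM), leukocyte (56.95 and 43.75 RPKM) and endothelial sums (50.06 and 47.84 RPKM). Per unit of Amh, Cst9 stood at 0.909 and 0.755 in the second libraries, at 0.914 and 0.833 in P3 WT and at 5.42 and 4.50 in P7 Ctrl. Aard per Amh stood at 0.868 and 0.747 in the second libraries, at 0.744 and 0.820 in P3 WT and at 10.3 and 10.3 in P7 Ctrl. In both ratios the second libraries lay closer to P3 WT than to P7 Ctrl, in which Amh was low beside Cst9 and Aard. The other day 3 libraries also lay far below P7 Ctrl, so this was not particular to the second libraries. Cst9 per Amh stood at 0.483 and 0.794 in P3 Ctrl and at 0.447 and 0.409 in the first single-knockout libraries. Aard per Amh stood at 1.20 and 1.04 and at 1.12 and 1.35 in the same order.

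Germ cell genes differed far less, and mostly downward. Of 72 tested germ cell genes none was 2-fold higher in both genotypes and 1, Dnmt3l, was 2-fold lower, while 43 pointed down and 11 up in both, with medians of -0.12 and -0.23, beside -0.04 and -0.04 over all genes. That is 59.7% down and 15.3% up, beside 46.6% down and 37.6% up over all genes tested. Summed over the lists, germ cell RPKM went from 5811 to 5225 in P3 Jmjd1aKO and from 6516 to 5526 in P3 Jmjd1bKO. As a share of all summed RPKM that was 1.20% and 1.01% in the first genotype and 1.22% and 0.983% in the other. In bulk RNA of this kind, fewer cells of a type and less RNA per cell cannot be told apart, and RPKM are relative to the library total.

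Among pan-germ-cell genes, Dazl, which encodes a translation regulator, read 351 and 299 RPKM in P3 Jmjd1aKO and 411 and 328 RPKM in P3 Jmjd1bKO. Tex15, needed for piRNA-directed silencing and for meiotic recombination, read 78.1 and 49.8 RPKM and 76.7 and 39.4 RPKM. Hormad1, a meiotic chromosome axis protein, read 63.3 and 41.4 RPKM and 64.4 and 30.3 RPKM. Tex101, a surface protein of male germ cells, read 223 and 238 RPKM and 197 and 196 RPKM, so the genes of this list did not share 1 direction. Of 20 genes 11 (55%) pointed down and 4 up in both genotypes, near the 46.6% of all genes.

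In the piRNA and de novo methylation list 12 of 17 genes (70.6%) pointed down and 3 up. Mael, a component of the piRNA granule, read 383 and 287 RPKM and 412 and 294 RPKM, and Piwil2, a PIWI protein that carries piRNAs, read 152 and 116 RPKM and 157 and 119 RPKM. Dnmt3l stood out, at 35.8 and 15.1 RPKM in P3 Jmjd1aKO and at 16.6 and 4.83 RPKM in P3 Jmjd1bKO. Nanos2, an RNA-binding protein of the male germline that later marks stem spermatogonia, went the other way, at 2.73 and 6.17 RPKM and at 1.32 and 3.32 RPKM. Piwil4, the nuclear PIWI protein of arrested gonocytes, read 27.6 and 24.7 RPKM and 24.3 and 18.6 RPKM.

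Of 24 genes of undifferentiated spermatogonia 13 (54.2%) pointed down and 2 up, with Gfra1, the GDNF receptor, at 67.9 and 47.7 RPKM and at 149 and 90.2 RPKM and the E-cadherin gene Cdh1 at 25.2 and 18.4 RPKM and at 42.5 and 22.7 RPKM. Zbtb16, a transcription factor of the same cells, was among the 2 that pointed up, at 22.7 and 24.1 RPKM and at 32.3 and 39.0 RPKM. In the list of differentiation and meiotic entry 7 of 11 (63.6%) pointed down, and Stra8, induced by retinoic acid at meiotic entry, pointed up at 40.4 and 50.8 RPKM and at 39.2 and 70.0 RPKM.

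The genes that were 2-fold lower were mostly outside these lists. Krt18 and Krt7, keratins present in neonatal germ cells, were at 60.03 and 14.4 RPKM in replicate 1 of P3 Jmjd1aKO and at 25.4 and 6.05 RPKM in replicate 2. In P3 Jmjd1bKO, Krt18 was at 44.1 and 12.03 RPKM and Krt7 at 20.6 and 3.88 RPKM. C3, the central complement component, read 9.95 and 2.72 RPKM and 3.92 and 0.749 RPKM. Rasgrf1, an imprinted gene for a Ras exchange factor, read 8.44 and 3.17 RPKM and 10.2 and 1.99 RPKM. Arhgdib read 9.91 and 3.53 RPKM and 8.54 and 1.78 RPKM, and Banf2, a relative of the chromatin protein BAF, read 5.08 and 0.486 RPKM and 3.52 and 0.166 RPKM. Atp12a, AA467197 and Defb47 were also among the 12 largest differences downward. So were Rps27rt, Atp6v0c-ps2 and H2-L, but reads of near-identical genes could be split among copies, so their values are uncertain.

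**Figure D3:**
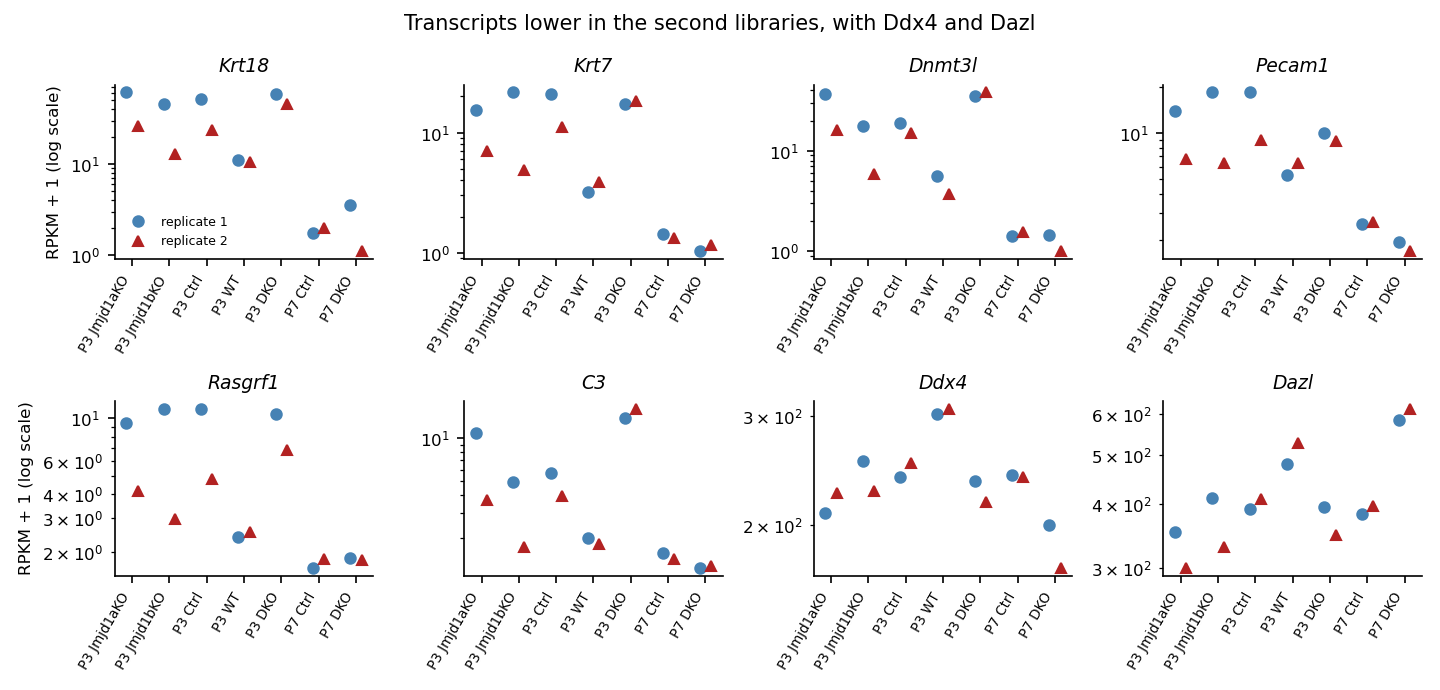
RPKM + 1 on a log scale for 6 genes lower in the second single-knockout libraries and for Ddx4 and Dazl, in every library, with blue circles for replicate 1 and red triangles for replicate 2. Krt18 is at 25.4 and 12.03 RPKM in the second libraries, 60.03 and 44.1 RPKM in the first, 10.03 and 9.41 RPKM in P3 WT and below 1 RPKM in P7 Ctrl.

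The same 84 lower genes, small RNA loci left out, were examined in libraries that the choice had not used. In P7 Ctrl against P3 Ctrl, a comparison added after the data had been seen, 83 of them pointed down with a median of -1.39 on the log2 scale. Over all 14772 genes 7534 pointed down, with a median of -0.01. Of the 84 genes, 37 (44.0%) passed as lower in limma with Benjamini-Hochberg adjustment at 0.05, beside 13.4% of all genes tested. Krt18 read 50.1 and 22.7 RPKM in P3 Ctrl and 0.772 and 0.998 RPKM in P7 Ctrl (log2 change -4.21 ± 0.68 SE, limma adjusted p = 0.00454). Dnmt3l read 18.0 and 13.9 RPKM in P3 Ctrl and 0.411 and 0.570 RPKM in P7 Ctrl (-3.50 ± 0.51 SE, limma adjusted p = 0.00329). Arhgdib read 8.62 and 3.96 RPKM in P3 Ctrl and 0.162 and 0.280 RPKM in P7 Ctrl (-2.50 ± 0.57 SE, limma adjusted p = 0.0153). All 3 genes were lower at day 7.

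In P3 WT against P3 Ctrl, 79 of the 84 pointed down with a median of -1.09, beside 7778 of all 14772 genes with a median of -0.02. None of the 84 passed in limma, beside 60 lower calls (0.406%) over all genes. At an unadjusted p under 0.05 were 41 (48.8%), beside 26.6% of all genes. Krt18 read 10.03 and 9.41 RPKM in P3 WT (-1.70 ± 0.68 SE, limma adjusted p = 0.154) and Krt7 2.22 and 2.85 RPKM against 19.9 and 10.1 RPKM in P3 Ctrl (-2.11 ± 0.60 SE, limma adjusted p = 0.0851). The fit shares its estimate of the spread over all groups, the single knockouts included. The lower and the higher genes were chosen for differing between replicates of the single knockouts, which widens their SE in this fit. Few calls among them with all libraries can therefore not be read as a result. Without both second single-knockout libraries, a setting chosen after seeing the data that leaves the P3 WT and P3 Ctrl libraries unchanged, 42 of the 84 passed as lower (50.0%, beside 9.25% of all genes), and Krt7 had an adjusted p of 0.0123 in limma. In P7 Ctrl against P3 Ctrl the same setting gave 69 of 84 (82.1%, beside 20.4%). The 376 higher genes pointed up less uniformly. In P3 WT 287 did so (median 0.33), beside 6932 of all 14772 genes, and in P7 Ctrl 239 (median 0.22), beside 7185. The counts and shares of the 376 include 41 genes that stood below 1 RPKM in every library of both comparisons. In P3 WT none of the 376 passed in limma, beside 44 higher calls (0.298%) over all genes, and 10 (2.66%) were at an unadjusted p under 0.05, beside 26.6%. The choice of these genes lowered both shares. Without the pair 89 passed as higher (23.7%, beside 5.64%) and 9 as lower. In P7 Ctrl 4 passed as higher (1.06%, beside 9.94%) and 1 as lower, and without the pair 102 (27.1%, beside 14.8%) and 39. The 4 were Basp1, Glb1l3, Hmgn5 and Rcn3 and the 1 was Anxa6, named after their values were seen. Both comparisons use the P3 Ctrl libraries, so they are not independent of each other.

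Within P3 Ctrl itself, replicate 2 was lower than replicate 1 for 79 of the 84 genes, with a median of -0.69, and 18 (21.4%) were 2-fold lower, beside 0.9% of all genes. Pecam1 read 17.4 and 7.95 RPKM, Rasgrf1 10.1 and 3.81 RPKM and Atp12a, a proton pump subunit gene, 4.16 and 1.03 RPKM in replicates 1 and 2 of P3 Ctrl. Amh differed little there, at 3.09 and 3.84 RPKM, and Cst9 read 1.49 and 3.05 RPKM. Of the 376 higher genes 184 pointed up and 191 down in P3 Ctrl, with a median of -0.01, and 7 were 2-fold higher (1.86%, beside 0.514% of all genes). Among the 376 are 41 genes below 1 RPKM in all libraries but the second single-knockout ones. In the other groups more of the 376 pointed up than down in replicate 2, with 285 and 90 in P3 DKO, 263 and 112 in P7 DKO, 238 and 137 in P3 WT and 238 and 136 in P7 Ctrl, and medians of 0.05 to 0.18. The 40 Sertoli genes were split evenly in P3 Ctrl, with 20 up and 20 down. Of the 84 lower genes, 60 were also lower in replicate 2 of P3 DKO (5 by 2-fold, 5.95%, beside 0.616% of all genes) and 47 in P7 DKO (5 by 2-fold, beside 1.58%). In P3 WT they were split, with 41 up and 40 down, and in P7 Ctrl with 40 and 40.

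The cell cycle genes showed a similar pattern. All 27 genes of G2 and mitosis were higher in replicate 2 of both single knockouts, none by 2-fold, with medians of 0.55 and 0.50, and all 27 were also higher in replicate 2 of P3 Ctrl, with a median of 0.45. Against the mean of both P3 Ctrl libraries in place of replicate 1, the median over both genotypes was 0.22 and not 0.47. Ube2c, a ubiquitin carrier of the anaphase-promoting complex, read 43.5 and 87.4 RPKM in P3 Jmjd1aKO, 62.0 and 124 RPKM in P3 Jmjd1bKO and 49.1 and 98.6 RPKM in P3 Ctrl. Cdk1, the kinase that drives entry into mitosis, read 15.5 and 31.4 RPKM, 21.3 and 40.9 RPKM, and 17.8 and 33.2 RPKM in the same order. In P3 WT, Ube2c stood at 122 and 117 RPKM and Cdk1 at 41.4 and 38.2 RPKM. Of 28 S phase genes 22 pointed up in both knockouts, with medians of 0.28 and 0.18, and 28 in P3 Ctrl, with a median of 0.31. Tyms, thymidylate synthase, read 6.31 and 11.3 RPKM, 8.39 and 15.1 RPKM, and 8.04 and 12.2 RPKM.

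**Figure D4:**
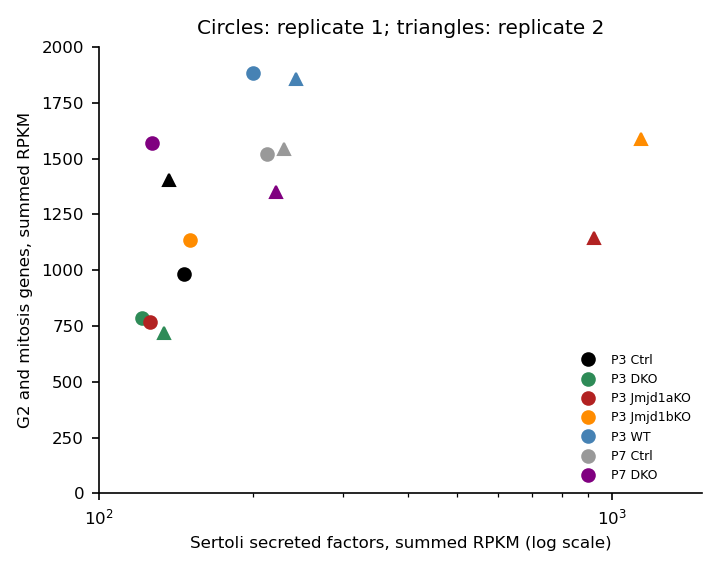
Summed RPKM of 27 G2 and mitosis genes against summed RPKM of 16 Sertoli hormones and secreted factors (log scale) in each of the 14 libraries, with circles for replicate 1, triangles for replicate 2 and a colour per group. From replicate 1 to replicate 2 the mitosis sum differs by a like amount in P3 Ctrl (984.9 and 1406), P3 Jmjd1aKO (768.6 and 1142) and P3 Jmjd1bKO (1135 and 1590), while the Sertoli sum reaches 925.6 and 1140 in the second single-knockout libraries alone.

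Genes that respond within minutes to handling of tissue were mixed. Cyr61, a matricellular target of the YAP pathway, read 2.66 and 42.1 RPKM in P3 Jmjd1aKO and 2.52 and 64.5 RPKM in P3 Jmjd1bKO. Jun, a subunit of the AP-1 factor, read 4.23 and 16.7 RPKM and 5.06 and 19.9 RPKM, and its partner Fosb 0.937 and 5.09 RPKM and 1.005 and 7.39 RPKM. Egr1 did not follow, at 184 and 180 RPKM and at 149 and 161 RPKM, and Zfp36, which destabilises mRNAs, was lower in replicate 2 at 47.6 and 22.9 RPKM and at 42.4 and 22.2 RPKM. Of 23 genes in this list 3 were 2-fold higher in both genotypes, with 11 pointing up (47.8%) and 7 down (30.4%), beside 37.6% and 46.6% of all genes. In replicate 2 of P3 Ctrl 17 of the 23 were lower than in replicate 1, with a median of -0.31. The part of handling in the differences was not tested.

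**Figure D5:**
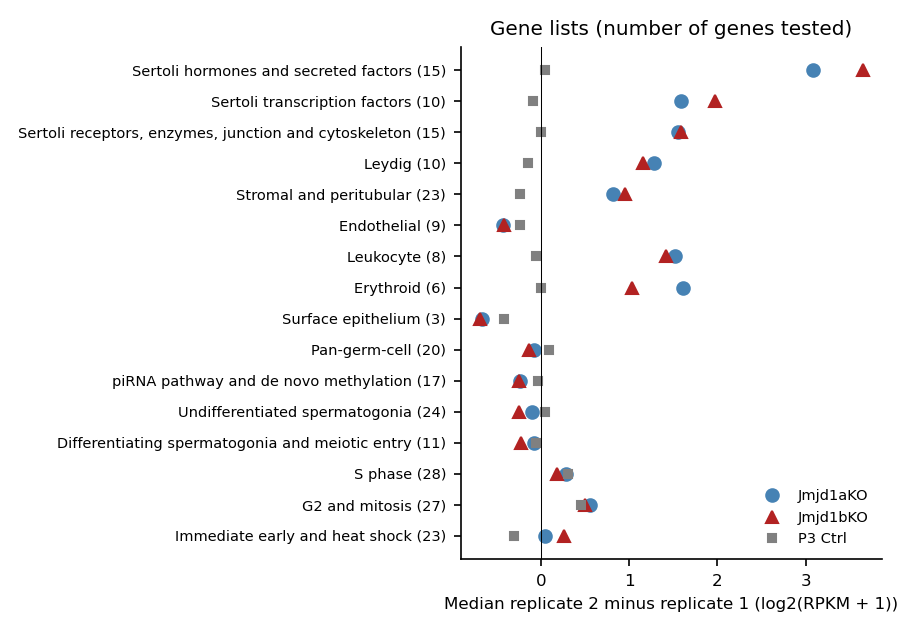
Median difference between replicates 2 and 1 (log2(RPKM + 1)) of each gene list, with blue circles for P3 Jmjd1aKO, red triangles for P3 Jmjd1bKO and grey squares for P3 Ctrl; the number of genes tested is in brackets. The 3 Sertoli lists lie between 1.55 and 3.65 in the single knockouts and near 0 in P3 Ctrl, while the G2 and mitosis list lies between 0.45 and 0.55 in all 3 groups.

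Most Sertoli genes also pointed up in P3 WT against P3 Ctrl. Of 40 genes 30 did so, with a median of 0.56, beside 6932 of all 14772 genes with a median of -0.02. None of the 40 passed in limma with all libraries (beside 0.298% higher calls over all genes), and 5 (12.5%) were at an unadjusted p under 0.05, beside 26.6% of all genes. The Sertoli differences by which the second libraries were chosen widen the SE of these genes, so these low counts cannot be read as a result. In the same comparison 18 passed as higher and 4 as lower without both second single-knockout libraries, beside 5.64% and 9.25% of all genes. The lower ones were Krt8, Defb36, Rhox5 and Trf. Amh, at 16.6 and 22.6 RPKM in P3 WT against 3.09 and 3.84 RPKM in P3 Ctrl, had a log2 change of 2.19, with an SE of 1.65 and an adjusted p of 0.412 in limma with all libraries. Without the pair its SE was 0.28 and its limma adjusted p 0.0123. Gja1 read 9.09 and 13.1 RPKM in P3 WT against 1.20 and 1.44 RPKM in P3 Ctrl (log2 change 2.36, limma adjusted p = 0.313 with all libraries and 0.00893 without the pair). Dcn and Col3a1, by contrast, read 0.629 and 0.228 RPKM and 0.635 and 0.700 RPKM in P3 WT, close to 0.438 and 0.364 RPKM and 0.805 and 0.487 RPKM in P3 Ctrl. Of the 23 stromal and peritubular genes 16 pointed down in P3 WT, with a median of -0.26, beside 7778 of all 14772 genes with a median of -0.02. That is no larger than the spread within P3 Ctrl. There, 22 of the 23 were lower in replicate 2 than in replicate 1, with a median of -0.25. In the second single-knockout libraries 18 of the 23 had pointed up, but 6 of the 23 were tested only because of those libraries.

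The single-knockout comparisons with P3 Ctrl hold the values that chose these libraries, so their Sertoli genes are described without a test. Amh had a log2 change of 2.29 in P3 Jmjd1aKO and of 2.33 in P3 Jmjd1bKO, each a mean of a low and a high library. The median of the 40 Sertoli genes was 1.16 in P3 Jmjd1aKO with both libraries, 0.08 without replicate 2 and 2.24 without replicate 1. In P3 Jmjd1bKO it was 1.12, -0.07 and 2.31 in the same order. Over all genes limma called 5 (0.0338%) in P3 Jmjd1aKO, among them Kdm3a (log2 change -1.39 ± 0.11 SE, adjusted p = 0.000891), and 3 (0.0203%) in P3 Jmjd1bKO, where Kdm3b did not pass (-0.87 ± 0.21 SE, adjusted p = 0.965). In P3 WT against P3 Ctrl, which includes none of the 4 libraries in its groups, limma called 104 genes with all libraries and 2199 without both second ones. Without replicate 1 of P3 Ctrl the 104 became 4, without its replicate 2 they became 231, and without either P3 WT library 7.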

How the data were processed

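The authors deposited 1 table of RPKM per library, for 24340 gene symbols. Per the submitters' processing notes TopHat2 2.1.1 and Cufflinks 2.1.1 were used with mm10; their settings and the annotation are not given in the sources used here. Values were used as log2(RPKM + 1), for the 14772 genes that reached 1 RPKM in 2 or more libraries, so differences of low genes are understated. Depth was estimated from the RPKM steps of 3505 genes with 1 transcript of 800 to 8000 nucleotides (65.1 to 73.8% within 0.2 of a whole read, against 40% by chance), which is too loose for a count test. Replicates 2 and 1 were compared by their difference within each genotype. Other comparisons used limma 3.58.1 in R 4.3.3 (trended eBayes, 1 coefficient per group, 7 residual degrees of freedom, two-sided, Benjamini-Hochberg over all genes tested, threshold 0.05), tested on simulated data. The members and the 16 gene lists (276 genes, 273 in the files) were chosen with earlier results of these data known. Named were the marker and targeted genes, up to 4 members of each list with the largest mean difference and the 2 with the highest level, and the 12 largest differences each way, predicted and small RNA genes left out; further list members were named after their values were seen. Alternatives were another pseudocount, other filters and scalings, another reference, 1 genotype alone, libraries left out and replicate number as a block.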

Additional observations from a re-analysis of the deposited data

How the results depend on the processing

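The count of genes at least 2-fold higher in both genotypes was 388 and that of lower genes 105. With 1 genotype alone they ranged from 457 to 646 higher and from 206 to 377 lower. A pseudocount of 0.1 gave 494 lower genes, and a 4-fold limit 97 higher and 13 lower. The median of all Sertoli genes, 2.17 over both genotypes, was 2.97 with a pseudocount of 0.1 and 1.83 without a filter. The leukocyte median turned to -0.77 with a filter of 5 RPKM, which leaves fewer genes, and the S phase median to -0.030 against the mean of P3 Ctrl. The erythroid list had no gene left with the filter of 5 RPKM. Of 814 values of named genes under the alternatives 18, in 13 genes, turned sign and 114 moved beyond the spread. None of the 18 belonged to a gene past 2-fold in both genotypes. Kdm3b went farthest past 0, from 0.52 to -0.18 against the mean of P3 Ctrl, where Pcna, Ccnb1, Tuba3a, Orc1, Rrm2 and Dmrt1 also turned.

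In limma, P3 Jmjd1aKO against P3 Ctrl gave 5 calls, 3 with a pseudocount of 0.1, 12 without a filter, 9 under quantile normalization and 10 without both second single-knockout libraries. P3 Jmjd1bKO gave 3, with 7 without a filter, 3 to 7 when 1 library was left out (7 without P3 Ctrl replicate 2, 5 without P3 Jmjd1bKO replicate 1) and 7 without both second ones. P3 WT gave 104 (44 higher, 60 lower), with 183 at a pseudocount of 0.1, 47 under quantile normalization, 2199 without both second ones and 4 to 231 when 1 library was left out (P3 Ctrl replicate 1 left out for the lowest and its replicate 2 for the highest). P7 Ctrl gave 3441 (1468 higher, 1973 lower; 1587 and 1424 under quantile normalization), 5206 without both second ones and 486 to 2506 when 1 library was left out (673 without P3 Ctrl replicate 1, 556 and 486 without replicate 1 and 2 of P7 Ctrl). Sertoli genes higher in P3 WT were 0 with all libraries, 18 without both second ones and 1 with the replicate block. The labels do not say that a replicate number pairs libraries. Replicate 2 minus replicate 1, without small RNA loci, correlated at 0.43 and 0.45 between P3 Ctrl and the single knockouts, at -0.03 between P3 Ctrl and P3 WT and at -0.0020 between P3 Ctrl and P7 Ctrl. With replicate number as a block the calls were 3, 3, 776 and 4543 in the 4 comparisons, and the cause was not tested. A group left with 1 library is assumed to vary like the others.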
